A study of Mus musculus with 4 samples.

Results

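The mitochondrial ribosome, or mitoribosome, is the particle that translates the few messages encoded by mitochondrial DNA, and the genes of its proteins are described here in the kidneys of mice that lack the deubiquitinase Usp2. The members were all genes whose symbol begins with Mrpl or Mrps followed by a digit, taken from the probe sets that carry 1 gene symbol. Of 28270 probe sets, 21780 carried 1 symbol, and these stood for 19934 genes, of which 77 were members, 48 named Mrpl and 29 named Mrps. Where a gene had several probe sets, the one with the highest mean over the 4 arrays was used, so that 85 probe sets gave 77 values. RefSeq's gene table lists 78 protein-coding genes of this naming, and the remaining one, Mrpl53, shares its probe set with Ccdc142. That shared probe set read 8.70 and 8.75 in the WT pools and 8.76 and 8.70 in the Usp2-KO pools.

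Total RNA came from whole kidneys of male mice of strain C57BL6/N, 12 weeks old, dissected at Zeitgeber time 12, the hour of lights-off at which Usp2 peaks according to the labels. There were 2 groups, WT and Usp2-KO, each of 2 pools of 3 mice, and the 6 littermate pairs were kept together, so that pool 1 of each genotype holds one set of littermates and pool 2 the other. All mice had been kept for 3 weeks in 12 h of light and 12 h of dark, and no other allele or agent is named for any group. The labels do not say which part of Usp2 was removed or whether the deletion spares any cell type. A pool is 1 array, so every p-value below rests on the spread between pools and not between single mice. It draws on each gene's own spread and on one shared by all genes. In bulk kidney, fewer cells of a type and less RNA per cell cannot be told apart.

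Almost all of the proteins that a mitochondrion uses are made in the cytosol and imported, but a small set of core respiratory chain subunits is made inside the organelle. The ribosome that makes them is protein-rich compared with its bacterial relatives: some of its subunits descend from bacterial ribosomal proteins and others exist only in mitochondria. All of its proteins are encoded in the nucleus, and proximal tubule and thick ascending limb cells of the kidney are among the cells richest in mitochondria. Factors named in the literature on such genes are NRF1, the ETS factor GABP and YY1, whose recognition sequences are common in promoters of nuclear genes for mitochondrial proteins.

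The promoters were therefore read for these recognition sequences. RefSeq's promoter table (GRCm38.p6) holds the 300 bases around the start for 68 of the 77 members and for 15560 of all genes measured. On either strand, the ETS sequence CCGGAAG was found in 24 of 68 members (35.3%, against 12.5% of all promoters), the YY1 sequence GCCATNTT in 21 (30.9% against 6.92%) and the NRF1 sequence (GCGCA, any base, then GCGC) in 13 (19.1% against 7.28%). At least 1 of the 3 was present in 45 members, or 66.2%, against 23.4% of all promoters. The SP1 sequence GGGCGG was as frequent in members, 34 of 68, as in all promoters (49.9%), and the TATA box TATAAA was found in 4 members (5.88% against 12.1%). Printed here are the 250 bases upstream of the start for members that lay at opposite ends of the Usp2-KO difference, Mrps31, Mrpl22 and Mrps22 among the highest and Mrps21 and Mrpl12 among the lowest, and for Mrps12, whose promoter faces that of a mitochondrial tRNA synthetase gene. Each runs 5′ to 3′ in the direction of the gene, and capitals mark the recognition sequences, ETS in Mrpl22, ETS and SP1 in Mrps22, NRF1 in Mrps21 and Mrpl12, and YY1 and SP1 in Mrps12. The 250 bases of Mrps31, the highest member, held none of them.
Mrps31 (chr8:22411090-22411339, plus strand): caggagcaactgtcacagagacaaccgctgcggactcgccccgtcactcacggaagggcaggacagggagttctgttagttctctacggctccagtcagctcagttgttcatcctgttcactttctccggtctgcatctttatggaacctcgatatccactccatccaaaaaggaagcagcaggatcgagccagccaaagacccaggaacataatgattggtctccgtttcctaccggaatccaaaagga
Mrpl22 (chr11:58171414-58171663, plus strand): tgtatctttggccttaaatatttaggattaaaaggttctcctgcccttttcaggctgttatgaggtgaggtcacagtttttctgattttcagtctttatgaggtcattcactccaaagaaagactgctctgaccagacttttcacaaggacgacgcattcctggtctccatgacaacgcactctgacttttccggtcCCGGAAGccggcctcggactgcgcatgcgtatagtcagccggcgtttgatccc
Mrps22 (chr9:98601680-98601929, minus strand): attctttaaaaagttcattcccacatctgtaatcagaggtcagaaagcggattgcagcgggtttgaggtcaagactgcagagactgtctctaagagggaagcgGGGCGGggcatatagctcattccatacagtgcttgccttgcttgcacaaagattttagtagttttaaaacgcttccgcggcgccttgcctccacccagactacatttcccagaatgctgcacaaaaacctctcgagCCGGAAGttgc
Mrps21 (chr3:95871515-95871764, minus strand): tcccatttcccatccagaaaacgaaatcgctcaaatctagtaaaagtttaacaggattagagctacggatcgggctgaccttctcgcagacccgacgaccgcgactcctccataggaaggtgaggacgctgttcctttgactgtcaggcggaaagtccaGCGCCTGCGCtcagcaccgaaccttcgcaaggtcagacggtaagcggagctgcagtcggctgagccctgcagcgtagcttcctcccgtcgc
Mrpl12 (chr11:120484387-120484636, plus strand): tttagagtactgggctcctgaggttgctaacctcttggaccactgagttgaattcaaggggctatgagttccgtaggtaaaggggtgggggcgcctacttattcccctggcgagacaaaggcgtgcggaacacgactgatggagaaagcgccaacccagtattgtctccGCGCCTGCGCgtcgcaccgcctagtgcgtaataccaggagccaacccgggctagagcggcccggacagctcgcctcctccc
Mrps12 (chr7:28741822-28742071, minus strand): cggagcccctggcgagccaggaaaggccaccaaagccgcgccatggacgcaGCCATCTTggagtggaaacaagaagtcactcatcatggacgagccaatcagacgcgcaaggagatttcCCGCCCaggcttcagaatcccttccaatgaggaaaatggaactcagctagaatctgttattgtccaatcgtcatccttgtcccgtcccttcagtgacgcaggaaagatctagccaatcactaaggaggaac
A match is a run of letters and not a measured binding site. The Usp2-KO minus WT difference had a median of 0.013 on the log2 scale in members whose promoter held an NRF1, ETS or YY1 sequence and 0.012 in those whose promoter held none. Taken singly, the medians with and without the sequence were 0.00775 and 0.015 for ETS, 0.0085 and 0.013 for YY1, and 0.0095 and 0.015 for NRF1. These differences were not tested.

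The deletion itself was visible on the arrays. Usp2 read 11.63 and 11.71 in the WT pools and 7.65 and 7.60 in the Usp2-KO pools, and fell by 4.04 on the log2 scale (standard error 0.073, limma, Benjamini-Hochberg adjusted p 2.8e-08 over all 19934 genes). It was the only gene called at an adjusted p under 0.05, which is 0.00502% of the genes tested. Adding the littermate set to the fit as a block gave 153 called genes, or 0.768%, of which 102 were higher (0.512%) and 51 lower (0.256%). With the block, the spread shared by all genes carried 90.6 degrees of freedom beside 1 of the gene's own. Without it these were 6.87 and 2. Calls with the block therefore rest almost wholly on the shared spread and little on how far a gene's own pools differ. Array medians lay between 7.44 and 7.46. All 12 proximal tubule markers were above the median gene, and their summed level was 16.84 to 16.84 in WT and 16.84 to 16.86 in Usp2-KO on the log2 scale.

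None of the 77 members was called, either without the block, where the lowest adjusted p was 0.48 for Mrps5, or with it, where the lowest was 0.30 for Mrps21 (limma, Benjamini-Hochberg). The median difference of the members was 0.011 on the log2 scale, beside -0.006 for all genes. Single members lay between -0.24 for Mrps21 and 0.24 for Mrps31, and 58 of the 77 lay within 0.1 of no difference. In direction, 44 members were higher and 33 lower in Usp2-KO, or 57.1% higher beside 47.4% of all genes. That split depends on scaling: when quantile normalization was repeated on the deposited values, 29 were higher and 48 lower, with a median of -0.014. When the arrays were instead centred on their medians, 47 were higher and 30 lower, with a median of 0.023. At an unadjusted p under 0.05, 2 members were higher (2.6%, against 5.22% of all genes) and 0 lower (against 3.88%). With the block these counts were 3 higher (3.9%, against 5.28%) and 1 lower (1.3%, against 3.94%), namely Mrpl22, Mrps31 and Mrps5 on one side and Mrps21 on the other. The 2 Usp2-KO pools lay above both WT pools for 15 members (19.5%, against 19.8% of all genes) and below both for 11 (14.3%, against 19.1%). The shares of members in these counts were thus near or below those of all genes.

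The intervals say how large a difference these arrays leave room for. The standard errors of the members ran from 0.070 to 0.112 with a median of 0.076, and the 95% confidence interval held 0 for 75 members and not for 2, Mrps31 and Mrps5. The bound farthest from 0 belonged to Mrps21 and was a 1.41-fold lower level in Usp2-KO.

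**Figure D1:**
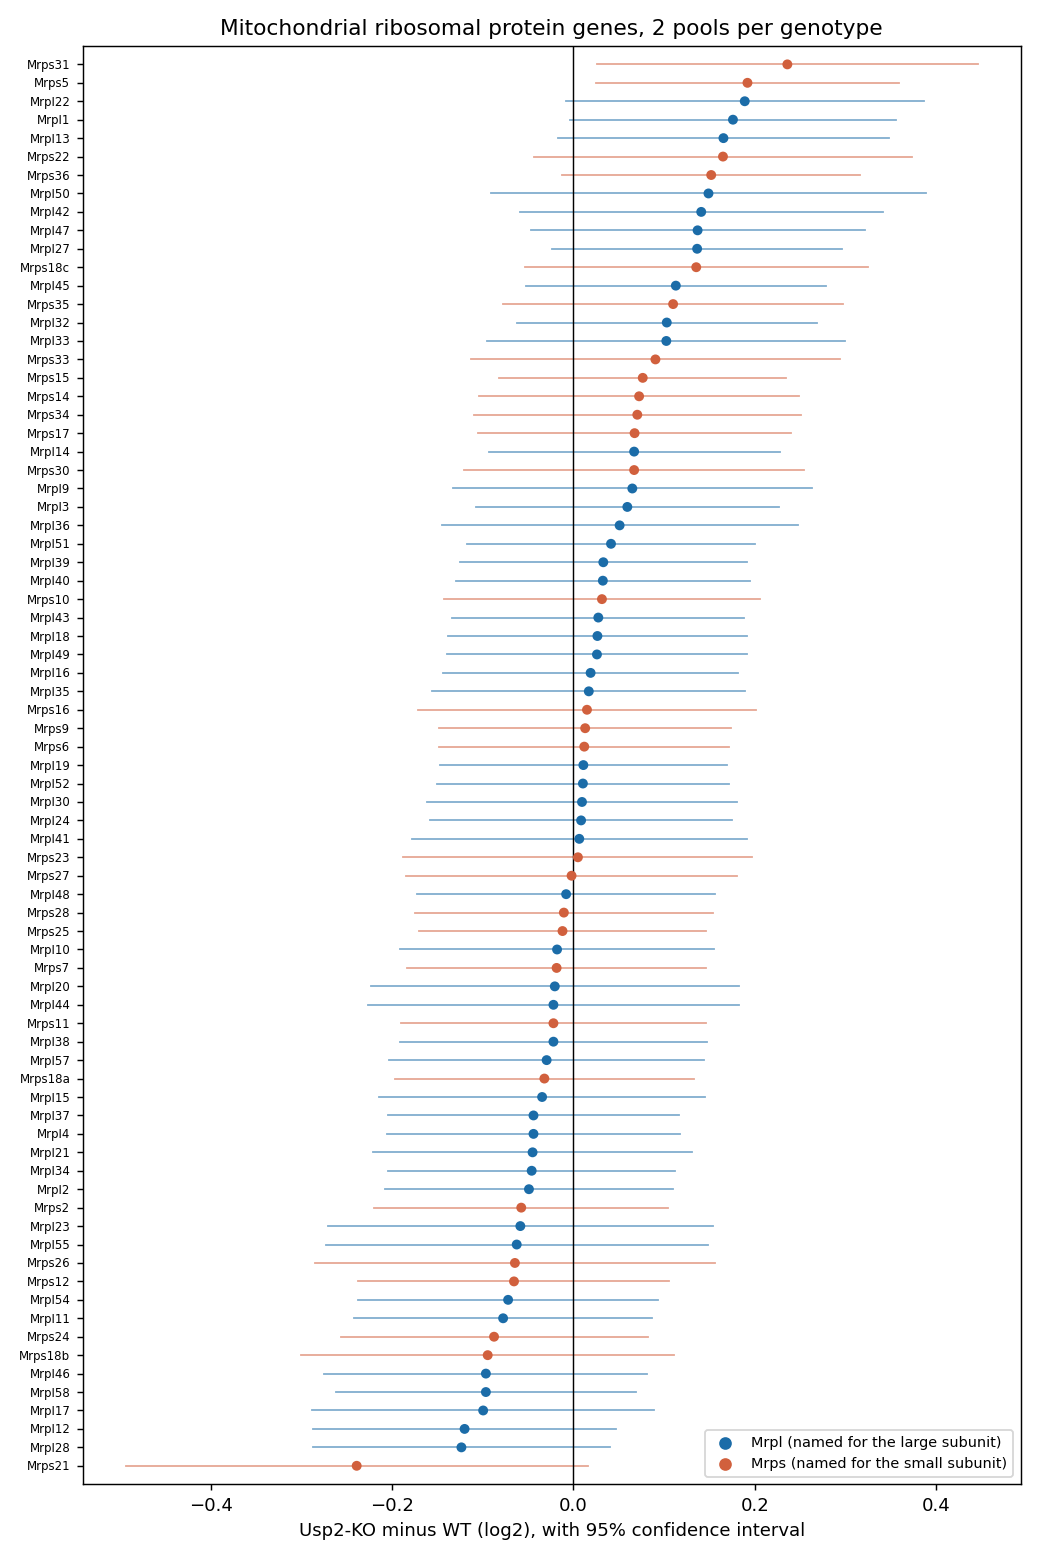
Usp2-KO minus WT on the log2 scale (horizontal axis) for each of the 77 mitochondrial ribosomal protein genes (vertical axis, sorted), with bars for the 95% confidence interval from limma over 2 pools per genotype. Members named Mrpl and Mrps are mixed along the whole order, and the intervals of 75 of 77 hold 0.

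Among the members of the small subunit, Mrps31, a subunit with no bacterial counterpart, had the largest positive difference. It read 8.29 and 8.15 in the WT pools and 8.56 and 8.34 in the Usp2-KO pools. Both Usp2-KO pools were above both WT pools, the difference was 0.24 (standard error 0.093), and its adjusted p was 0.50 (limma). Mrps5, whose bacterial relative helps set decoding accuracy, read 9.61 and 9.57 in WT and 9.73 and 9.83 in Usp2-KO. Its groups did not overlap either, both of its probe sets were higher in Usp2-KO, by 0.19 and 0.18, and its adjusted p was 0.48 (limma).

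Mrps22, a mitochondria-specific subunit in which human mutations cause respiratory chain disease, read 8.18 and 8.33 in WT and 8.32 and 8.53 in Usp2-KO. The lower Usp2-KO pool lay just under the higher WT pool, so the groups overlapped, and the difference of 0.17 had an adjusted p of 0.64 (limma). Mrps34, a mitochondria-specific subunit as well, read 8.69 and 8.76 in WT and 8.87 and 8.72 in Usp2-KO, with overlapping groups and a difference of 0.071. Mrps36 carries a small subunit name but has since been assigned to the 2-oxoglutarate dehydrogenase complex of the citric acid cycle. It read 7.44 and 7.46 in WT and 7.64 and 7.56 in Usp2-KO, without overlap.

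At the low end stood Mrps21, the counterpart of a small bacterial ribosomal protein. It read 12.03 and 12.37 in WT and 11.89 and 12.04 in Usp2-KO. The higher Usp2-KO pool was at the level of the lower WT pool, so the groups overlapped by a narrow margin, and the WT pools were themselves 0.34 apart. Its difference of -0.24 (standard error 0.112) had an adjusted p of 0.57 without the block and 0.30 with it (limma). Without WT pool 2 the difference was -0.068, and without WT pool 1 it was -0.41. Mrps24 read 10.27 and 10.36 in WT and 10.26 and 10.19 in Usp2-KO, a difference of -0.088 without overlap.

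Mrps12, the protein of the decoding site, read 7.55 and 7.65 in WT and 7.50 and 7.58 in Usp2-KO, and its groups overlapped. Its start lies 147 bases from that of Sars2, the mitochondrial seryl-tRNA synthetase gene, on the other strand. Their differences were -0.066 for Mrps12 and 0.031 for Sars2. Mrps2, Mrps7 and Mrps16, which in bacteria belong to the body and head of the small subunit, had differences of -0.058, -0.019 and 0.015, and all 3 intervals held 0.

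Mammals have 3 relatives of the bacterial subunit S18, of which the product of Mrps18a sits in the large subunit despite its name. Mrps18a read 10.31 and 10.37 in WT and 10.34 and 10.28 in Usp2-KO. Mrps18b read 10.72 and 10.80 in WT and 10.78 and 10.55 in Usp2-KO. Mrps18c read 8.59 and 8.55 in WT and 8.61 and 8.80 in Usp2-KO. Only in Mrps18c did the groups not overlap. The differences were -0.032, -0.095 and 0.14, with adjusted p of 0.93, 0.81 and 0.67 in limma, and the differences between the 3 relatives were not tested.

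In the large subunit, Mrpl22, whose bacterial relative lines the exit tunnel of the new protein, had the largest positive difference. It read 8.58 and 8.59 in WT and 8.89 and 8.67 in Usp2-KO. The groups did not overlap, most of the gap came from Usp2-KO pool 1, and the difference of 0.19 had an adjusted p of 0.57 (limma). Mrpl1, of the mobile stalk where spent tRNA leaves, read 8.20 and 8.34 in WT and 8.41 and 8.48 in Usp2-KO. Mrpl13, a conserved subunit, read 8.35 and 8.44 in WT and 8.48 and 8.63 in Usp2-KO. Both were higher in each Usp2-KO pool than in either WT pool, by 0.18 and 0.17. Mrpl50, a mitochondria-specific subunit, read 9.36 and 9.58 in WT and 9.49 and 9.74 in Usp2-KO. Its groups overlapped, and pool 2 was above pool 1 in both genotypes. Its difference of 0.15 became 0.025 when pool 2 of Usp2-KO was left out and 0.27 when pool 1 was.

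The stalk that recruits translation factors gave values on the other side. Mrpl12, the stalk protein, which has also been reported to bind the mitochondrial RNA polymerase, read 10.87 and 10.91 in WT and 10.82 and 10.72 in Usp2-KO. Mrpl11, at the base of the stalk, read 9.06 and 9.15 in WT and 9.03 and 9.04 in Usp2-KO. For both, each Usp2-KO pool was below each WT pool, with differences of -0.12 and -0.078 and adjusted p of 0.67 and 0.80 (limma). Mrpl10, which anchors Mrpl12 to the ribosome, read 11.39 and 11.52 in WT and 11.46 and 11.41 in Usp2-KO, with overlap and a difference of -0.018.

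Mrpl28 was the lowest member named for the large subunit. It read 9.59 and 9.58 in WT and 9.51 and 9.42 in Usp2-KO, a difference of -0.12 with no overlap and an adjusted p of 0.65 (limma). Mrpl58, a peptidyl-tRNA hydrolase built into the ribosome that releases stalled chains, read 9.59 and 9.63 in WT and 9.56 and 9.47 in Usp2-KO. Mrpl46 read 8.25 and 8.41 in WT and 8.22 and 8.24 in Usp2-KO. In both genes each Usp2-KO pool lay below each WT pool, with differences of -0.097, and in Mrpl54 the same held, with a difference of -0.072. Mrpl3, near the site of peptide bond formation, and Mrpl44, an RNase III-like subunit, are both linked to inherited cardiomyopathy in humans. Their differences were 0.060 and -0.022, and their groups overlapped.

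**Figure D2:**
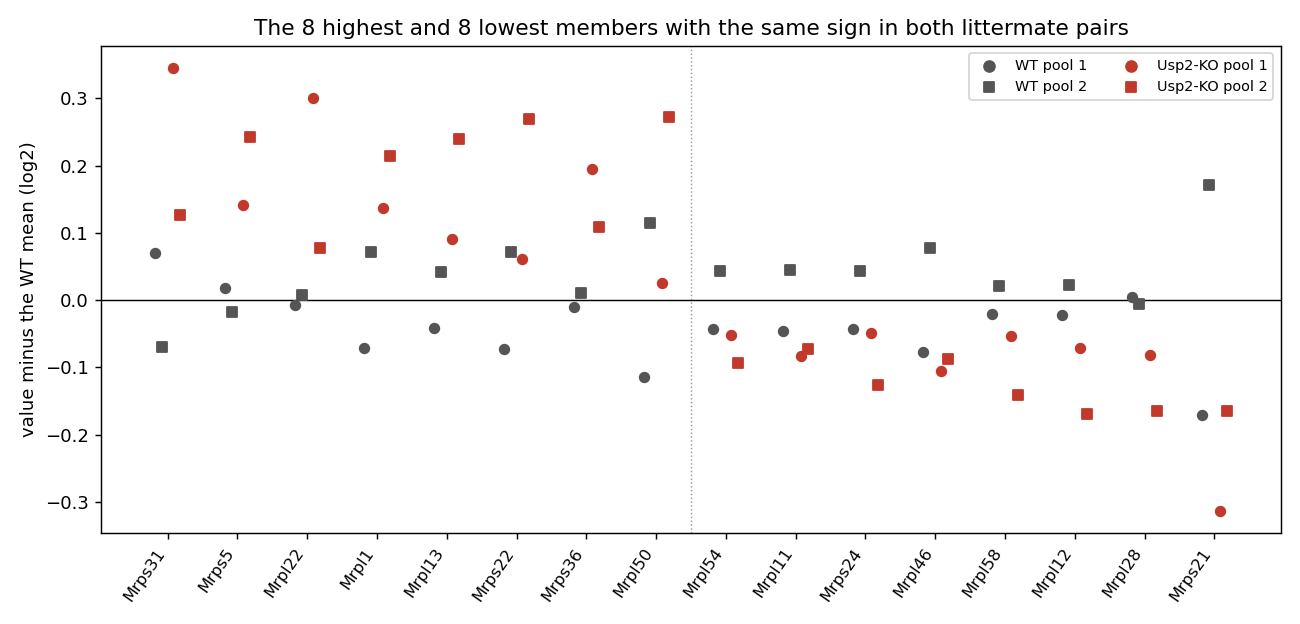
Values of the 8 highest and 8 lowest members among those whose sign agreed between the littermate pairs, as the value in each pool minus the mean of the WT pools on the log2 scale (vertical axis); circles are pool 1 and squares pool 2, WT in grey and Usp2-KO in red. The groups overlap for Mrps22 and Mrpl50 on the left and for Mrps21 on the right.

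Split by structure, the members gave like medians. Those named for the large subunit had a median difference of 0.010, with 27 higher and 21 lower, and those named for the small subunit 0.013, with 17 higher and 12 lower. The 45 members with a bacterial counterpart had a median of 0.011, with 25 higher and 20 lower, and the 32 without one had 0.018, with 19 higher and 13 lower.

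On the deposited scale the littermate pairs had medians of opposite sign. Between the pools numbered 1, 55 members were higher in Usp2-KO and 22 lower, with a median of 0.057. Between the pools numbered 2, 28 were higher and 48 lower, with a median of -0.040. After repeated quantile normalization the medians were 0.0088, with 40 of 77 higher, in the first pair and -0.039, with 29 of 77 higher, in the second. With arrays centred on their medians they were 0.0775, with 63 of 77 higher, and -0.037, with 30 of 77 higher. All genes had pair medians of 0.013 and -0.012 as deposited. Only 22 members were higher in both pairs (28.6%, against 26.1% of all genes) and 16 lower in both (20.8%, against 25.3%), while 32 were higher in the first pair and lower in the second and 6 the reverse.

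The pools of 1 genotype also differed from each other. WT pool 2 was above WT pool 1 for 61 of 77 members (79.2%, against 53.4% of all genes), with a median of 0.054. After repeated quantile normalization the count was 55 of 77 and the median 0.039. With arrays centred on their medians these were 66 of 77 and 0.0705. Usp2-KO pool 2 was above Usp2-KO pool 1 for 29 members and below it for 48, with a median of -0.040. That median was -0.0068 after repeated quantile normalization and -0.041 with arrays centred on their medians. Measured from each gene's own mean over the 4 pools, the median of the members was -0.041 in WT pool 1, 0.018 in WT pool 2, 0.017 in Usp2-KO pool 1 and -0.016 in Usp2-KO pool 2. WT pool 1 was the lowest on that scale. After repeated quantile normalization the 4 medians were -0.019, 0.022, -0.0095 and -0.015, so that WT pool 2 was the highest and the other 3 lay below 0. With arrays centred on their medians they were -0.055, 0.020, 0.023 and -0.010, and WT pool 1 was again the lowest. Without WT pool 1 the median difference of the members was -0.014, and without WT pool 2 it was 0.037.

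**Figure D3:**
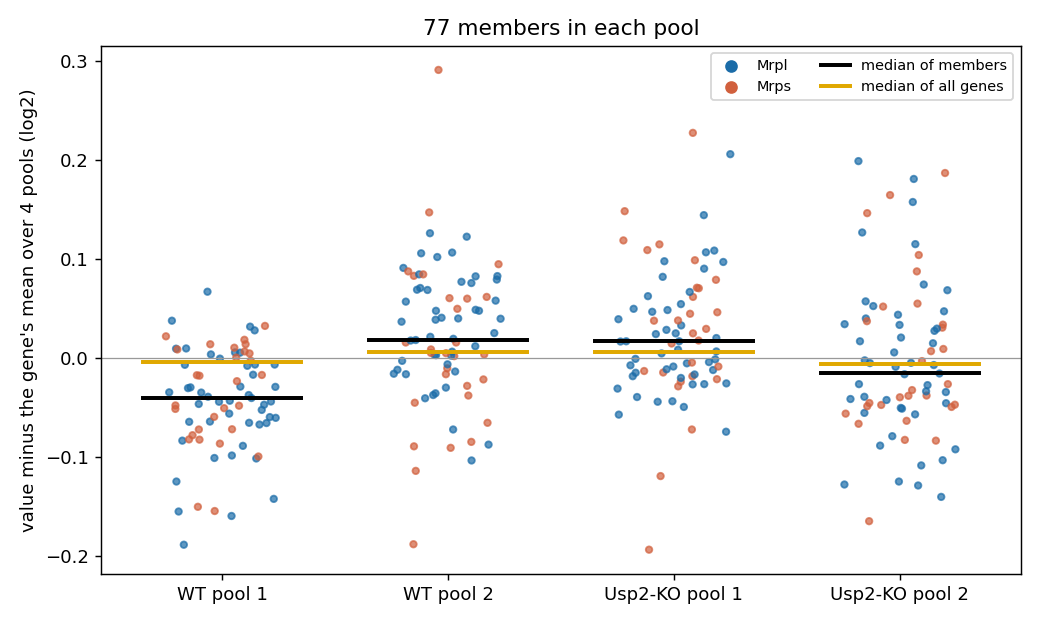
Each point is 1 of the 77 members in 1 pool, as its value minus its own mean over the 4 pools on the log2 scale (vertical axis), with black lines for the members' median and yellow lines for the median of all genes. The members' median is lowest in WT pool 1, at -0.041, and between -0.016 and 0.018 in the other pools.

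Most members are short genes. Their median length from start to end in RefSeq was 7749 bases, beside 17741.5 for all genes, and 65 of 77 were below the latter. The shortest was Mrpl34 with 828 bases and the longest Mrps28 with 121712. Across all genes the difference between genotypes went up with length, with a Spearman rho of 0.19 over 19852 genes, and across the 77 members rho was 0.32 (0.21 in the first littermate pair and 0.32 in the second). The same rank correlation was -0.057 for WT pool 2 minus WT pool 1 and 0.14 for Usp2-KO pool 2 minus Usp2-KO pool 1. For the Usp2-KO minus WT difference, rho was -0.064 within the 39 members at or below the members' median length. Within the 38 members above it, rho was 0.084. These correlations are across genes that share the same 4 arrays, and genes are not independent replicates.

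The members were next set beside genes of their own length. All genes were divided by length into 10 bins of equal size. In the 4 bins of shortest genes, 29 of 56 members were higher and 27 lower, with a median of 0.0075, where all genes of that length had a median of -0.029 and 37.7% were higher. In the 6 bins of longer genes, 15 of 21 members were higher and 6 lower, with a median of 0.033, beside 0.0095 and 53.9% for all genes. Counted from the shortest, bins 5, 6 and 7 held 9, 5 and 1 members, with medians of 0.033, 0.141 and 0.11. Bins 8, 9 and 10 held 3, 2 and 1 members, with medians of 0.013, -0.005 and -0.0105. Under repeated quantile normalization the short members were 17 higher and 39 lower, and the long ones 12 higher and 9 lower. With arrays centred on their medians, the short members were 29 higher and 27 lower, and the long ones 18 higher and 3 lower. The Usp2-KO pools lay above the WT pools for 8 short members (14.3%, against 12.1% of all genes in those bins) and below for 11 (19.6%, against 23.9%). They lay above for 7 of the 21 long members (33.3%, against 25% of all genes) and below for 0 (against 15.7%). Among the 7 are Mrps31, Mrps5, Mrpl1 and Mrpl13. After subtraction of the median of all genes in the same bin, the median of the members was 0.035, with 48 higher and 29 lower. This subtraction was made on the deposited scale only. Under repeated quantile normalization the members had a median of -0.0138, beside -0.0081 for all genes of any length. With arrays centred on their medians these were 0.023 and 0.00575.

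**Figure D4:**
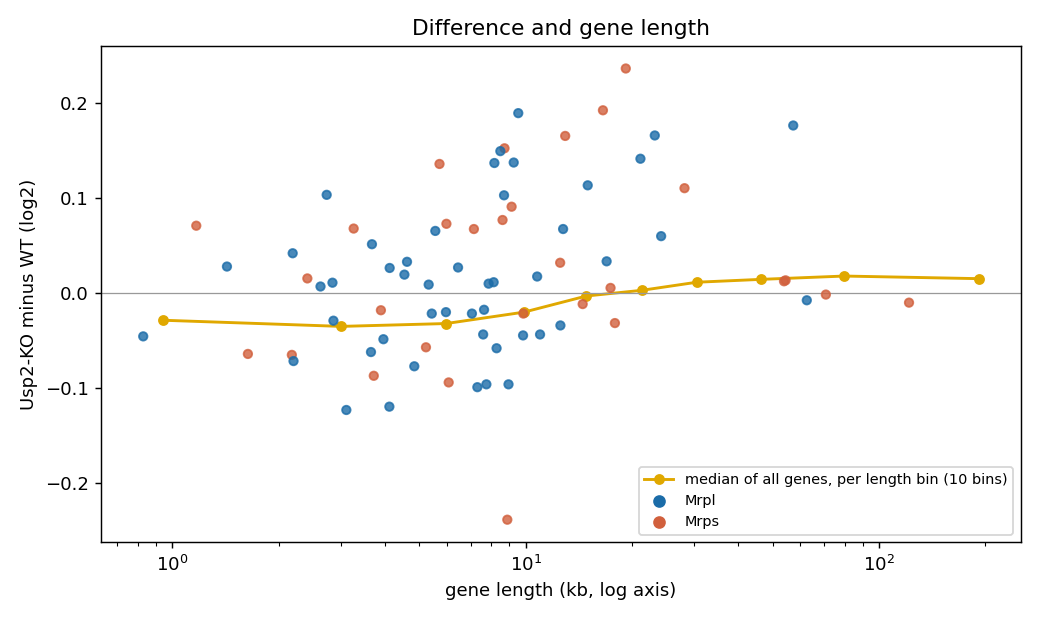
Usp2-KO minus WT on the log2 scale (vertical axis) against gene length in kilobases (horizontal axis, log scale) for the 77 members, with yellow points for the median of all genes in each of 10 bins of length. The members spread around the line of all genes, and the 4 highest lie among genes of more than 9 kb.

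The neighbours of the members in the pathway were read in the same way, and none of the genes in these lists was called without the block or with it, at adjusted p under 0.05 in limma. Of the subunits with other names, the small subunit GTPase Dap3 read 9.69 and 9.70 in WT and 9.67 and 9.67 in Usp2-KO, and Ptcd3 read 8.41 and 8.47 in WT and 8.50 and 8.55 in Usp2-KO. Neither group pair overlapped, with differences of -0.022 and 0.086 and adjusted p of 0.95 and 0.77 (limma). The other measured genes of this list, Gadd45gip1 and Chchd1, had differences of -0.0585 and 0.053. Of the 4, the Usp2-KO pools lay above the WT pools for 1 and below for 2, against 19.8% and 19.1% of all genes. Assembly factors, which fold and modify the ribosomal RNA and join the subunits, gave 11 higher and 14 lower of 25, with a median of -0.006. On the deposited scale their littermate pairs had opposite directions, as those of the members had. In the first pair 19 of 25 were higher (76%, against 54.0% of all genes), and in the second 3 of 25 (12%, against 46.5%). The pairs of this list were not read on another scale. At an unadjusted p under 0.05, 1 was higher, the GTPase Gtpbp10 (0.21), and 1 lower, the methyltransferase Mrm2 (-0.18).

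Translation factors had 11 higher and 3 lower of 14 and a median of 0.063. Guf1, a ribosome-binding GTPase, read 7.98 and 8.06 in WT and 8.17 and 8.32 in Usp2-KO, without overlap and with an adjusted p of 0.44 (limma). Mitochondrial tRNA synthetases, which load amino acids onto tRNA, had 15 higher and 4 lower of 19 and a median of 0.031. Rars2, the arginyl-tRNA synthetase, read 9.26 and 9.24 in WT and 9.47 and 9.48 in Usp2-KO. Its pools agreed closely within each genotype, and the difference of 0.23 had an adjusted p of 0.39 (limma). Genes for mitochondrial DNA expression and its regulators had 11 higher and 5 lower of 16 and a median of 0.063. Smallest in unadjusted p among them were Ssbp1 and Tfb2m, higher by 0.32 and 0.19, with adjusted p of 0.46 and 0.52 (limma). Both subunits of GABP, the ETS factor named above, were higher in each Usp2-KO pool than in either WT pool. Gabpa was higher by 0.14 and Gabpb1 by 0.14, with adjusted p of 0.65 and 0.62 (limma). In this list the Usp2-KO pools lay above the WT pools for 8 of 16 genes and below for 1, against 19.8% and 19.1% of all genes. Among all genes in the 6 bins of longer genes, these shares were 25% and 15.7%. Median gene lengths were 17508 bases for translation factors, 27555 for tRNA synthetases and 19967.5 for this list, beside 17741.5 for all genes. The lists were not set beside genes of their own length. None of the 15 genes of the mitochondrial DNA listed had a probe set with 1 symbol, so the messages that the mitoribosome translates were not analysed here.

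Oxidative phosphorylation subunits, whose core is the product of the mitoribosome, gave 42 higher and 33 lower of 75, with a median of 0.019. On the deposited scale their pairs had medians of 0.045 and -0.016, and WT pool 2 was above WT pool 1 for 60 of 75. Sdhd had the smallest unadjusted p among them, with a difference of -0.29 and an adjusted p of 0.40 (limma). At an unadjusted p under 0.05, 0 of these subunits were higher (against 5.22% of all genes) and 1 lower (against 3.88%). Protein import genes had 17 higher and 7 lower of 24 and a median of 0.013. Smallest in unadjusted p among them were Tomm70a and Timm21, higher by 0.30 and 0.34, with adjusted p of 0.31 and 0.38 (limma). At an unadjusted p under 0.05, 3 import genes were higher (against 5.22% of all genes) and 1 lower (against 3.88%). The cytosolic ribosomal proteins, which make up the other ribosome of the cell, had 27 higher and 32 lower of 60, a median of -0.009, and pair medians of 0.011 and -0.031. The differences between these lists and the members were not tested.

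**Figure D5:**
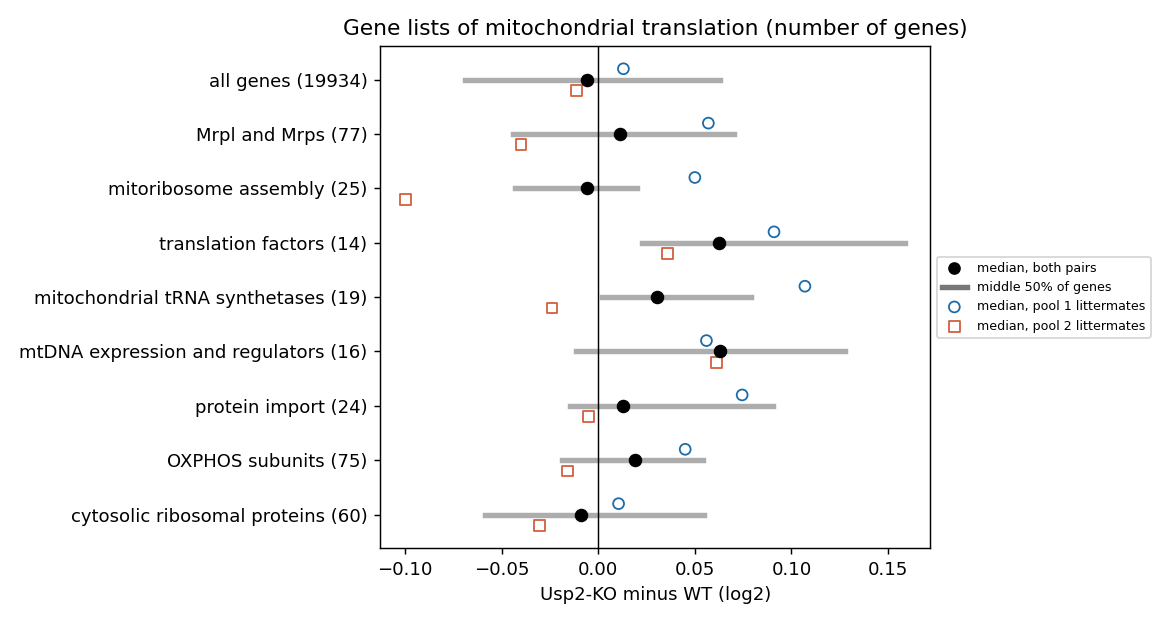
Median Usp2-KO minus WT on the log2 scale (horizontal axis) for the members, the related gene lists and all genes; filled points use both littermate pairs, grey bars span the middle 50% of genes, and open symbols are the medians within each pair. The open symbols lie on opposite sides of 0 in every line except translation factors and mitochondrial DNA expression, where both are above 0.

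Marker genes of other tissues and of kidney segments were read beside the members, and none was called without the block (limma). Of 7 fat markers 6 were lower in Usp2-KO, with a summed level of 10.51 to 10.53 in WT and 10.13 to 10.48 in Usp2-KO on the log2 scale, and 3 of the 7, Adipoq, Cidec and Retn, were called lower only with the block. Most of their difference lay in the first littermate pair, at -0.83, -0.80 and -0.69, beside -0.12, -0.041 and -0.14 in the second. Pancreas markers were lower in 7 of 7 (9.80 to 9.82 against 9.70 to 9.71), and all 7 were below the median gene. Brown fat, a tissue dense in mitochondria, had overlapping sums of 10.07 to 10.09 in WT and 10.03 to 10.19 in Usp2-KO. Of its 5 markers 2 were higher and 3 lower, and 4 were below the median gene. The sum rests mostly on the highest marker, Cox7a1, with a mean of 9.53. The thick ascending limb had 5 of 7 markers higher, with sums of 14.70 to 14.72 in WT and 14.73 to 14.77 in Usp2-KO. The distal tubule and collecting duct had 7 of 10 higher, with overlapping sums of 14.06 to 14.07 and 14.07 to 14.13. That sum rests mostly on Slc12a3, with a mean of 13.15 and a difference of -0.062. The median difference of the 10 markers was 0.13. At an unadjusted p under 0.05 (limma), 4 of them were higher (against 5.22% of all genes) and 0 lower (against 3.88%). Their Usp2-KO pools lay above the WT pools for 6 and below for 2, against 19.8% and 19.1% of all genes. Adrenal markers were lower in 6 of 6 (8.71 to 8.73 against 8.56 to 8.61), and all 6 were below the median gene. Glomerulus and vessel markers were lower in 6 of 8 and immune markers in 6 of 9, with overlapping sums of 13.31 to 13.36 against 13.28 to 13.34 and of 10.86 to 10.89 against 10.85 to 10.87. Muscle markers were lower in 4 of 6, while their sum was higher in Usp2-KO, at 10.44 to 10.47 against 10.41 to 10.42. Of the red blood cell markers only Alas2 had a probe set with 1 symbol, and it had a difference of -0.38, a call only in the fit with the block. The part of these cells and tissues in the members' values was not tested.

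Many members have close genomic neighbours or copies. A gene on the other strand starts within 1000 bases for 26 of the 68 members with a promoter entry (38.2%), against 13.4% of all promoters. The partner was measured in 23 distinct pairs, and in 12 of them both genes had the same sign. One such pair joins members of both subunits, Mrpl46 and Mrps11, whose starts are 42 bases apart. Mrps11 read 8.40 and 8.41 in WT and 8.44 and 8.33 in Usp2-KO, a difference of -0.022 beside -0.097 for Mrpl46.

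The probe sets themselves limit some values. Of the 85 probe sets of members, 7 have an identifier that lies among those of another chromosome, against 3.17% of the 21689 probe sets placed. Among these 7 are the probe sets used for 5 members (6.49% of members), namely Mrpl27, Mrpl41, Mrpl48, Mrpl51 and Mrps33. RefSeq lists a pseudogene of Mrpl27 on chromosome 18 and one of Mrpl48 on chromosome 4, the chromosomes of those neighbours, so signal of the copy and of the gene cannot be told apart there. Mrpl27 read 9.35 and 9.34 in WT and 9.51 and 9.45 in Usp2-KO in that probe set, which is higher by 0.14 without overlap. In its other probe set, among those of its own chromosome, it read 8.10 and 8.23 in WT and 8.13 and 8.09 in Usp2-KO, a difference of -0.056. Both probe sets of Mrpl47 lie on its own chromosome and still disagreed, at 0.14 and -0.18. The directions of Mrpl27 and Mrpl47 are therefore unsettled, while both probe sets of Mrps5 had the same sign. Both probe sets of Mrps36 and both of Mrpl23 also had the same sign, but the second of each lies among identifiers of a chromosome on which RefSeq lists a pseudogene, chromosome 7 for Mrps36 and chromosome 2 for Mrpl23. The probe sets of Mrpl23 gave almost the same littermate differences, 0.125 and -0.242 in one and 0.126 and -0.243 in the other. Whether they are separate measurements was not tested.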

How the data were processed

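Whole-kidney RNA pools were hybridised to 4 Affymetrix arrays, 1 pool each. The authors deposited log2 values normalized with RMA, per the submitters' processing notes; the RMA version and settings are not given in the sources used here. RMA gives arrays a like distribution, so a shift shared by all genes would not be seen, and the number of arrays limits the precision. From the deposited log2 values, limma 3.58.1 (lmFit and eBayes, in R 4.3.3) estimated Usp2-KO minus WT for 19934 genes without a block, with Benjamini-Hochberg adjustment over all of them. The script was tested on simulated data. Genes are named from GEO's platform annotation, and lengths and promoters come from RefSeq (GRCm38.p6). The littermate pairing comes from the series' design; taken as distances from the mean of their genotype, WT and Usp2-KO pools of 1 number correlated at -0.12 over all genes and 0.20 over the members. The members and lists were chosen with earlier results of these data known. Members named in full were the 8 highest and 8 lowest with the same sign in both pairs. Also named were the S18 relatives, well-known subunits, and members with several probe sets. In each list, up to 4 genes of smallest unadjusted p were eligible, and not all of these are named. Dap3, 1 of the 4 measured in its list, and Sars2, outside that rule, were added after their values were seen. Bacterial counterparts were also assigned after the values were seen. Alternatives were another prior, filters, probe set choice, scaling, threshold, block, and leaving out each pool.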

Additional observations from a re-analysis of the deposited data

How the results depend on the processing

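The count of 0 called members held under every alternative run, with the lowest adjusted p between 0.298 and 0.709 (limma). The count over all genes moved: 1 as reported, 153 with the littermate pools as a replicate block, 18 with an intensity trend, 7 among genes above the median level, 7 among genes with a mean of at least 6, 2 at an adjusted p under 0.10, and 1 to 2 when a pool was left out (2 without WT pool 1 and 2 without Usp2-KO pool 2). The block changed no call among the members. Crossed pool numbers in the block, chosen after seeing the data, gave 1 gene and 0 members. The median difference of the members ranged from -0.014 to 0.037 when a pool was left out. It was -0.014 after repeated quantile normalization and 0.023 with arrays centred on their medians. Of 33 named members, 21 kept their sign throughout. By scaling or probe set, Mrps16 turned to -0.011 and Mrpl41 to -0.014 under quantile normalization; Mrpl47 turned to -0.022 with the mean of its probe sets; and the other probe set gave -0.056 for Mrpl27, -0.005 for Mrpl41 and -0.18 for Mrpl47. Leaving out a pool kept the sign but gave values over 3 times apart for Mrps21 (-0.41 to -0.068), Mrpl50 (0.025 to 0.27), Mrpl46 (-0.17 to -0.019), Mrps22 (0.061 to 0.27) and Mrpl22 (0.078 to 0.30), among others. It gave ranges of -0.066 to 0.0015 for Mrps18a, -0.21 to 0.023 for Mrps18b, -0.080 to 0.044 for Mrpl10, -0.066 to 0.029 for Mrps7, -0.076 to 0.11 for Mrps16, -0.003 to 0.14 for Mrps34, -0.12 to 0.073 for Mrpl44, -0.17 to 0.053 for Mrpl23, -0.079 to 0.092 for Mrpl41 and -0.015 to 0.20 for Mrps33. The cause was not tested. With 2 pools a genotype, the standard errors of the members ran from 0.070 to 0.112, and whole kidney averages over segments.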
